A study of Bos taurus with 47 samples.

Results

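A set of 76 bovine genes, of 20526 in the table, was followed from the oocyte to blastocyst-derived cells. Their transcripts were low in MII oocytes and 2-cell embryos, high in 8-cell embryos made by in vitro fertilization (IVF), and low again in IVF blastocysts. The genes were chosen on measured values: a median of at most 20 normalized reads in MII oocytes and in IVF 2-cell embryos, a median of at least 60 in IVF 8-cell embryos, and a median in IVF blastocysts at least 4-fold below that in IVF 8-cell embryos. The rule names 6 identifiers to leave out, all of them in the table, and 76 genes met it without them. How many of the 6 met the conditions was not counted. The limit of 200 genes removed none. Differences among these 4 groups therefore chose the genes and are given as a description, with no test. The tests below use libraries that the choice did not use, namely embryos made by somatic cell nuclear transfer (scNT) at every stage, IVF morulae, blastocyst-derived cells of both kinds, and fibroblasts.

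A mammalian embryo begins on RNA stored in the oocyte, and its own genome is switched on in steps while the stored RNA is removed. In cattle the main wave of embryonic transcription begins around the 8-cell stage. Some of the transcripts made in that wave remain in later embryos, and others are present for a short time and are gone when the blastocyst has formed its first cell lineages. In scNT the chromosomes of the oocyte are taken out and a somatic nucleus is put in, so a gene that is silent in the donor cell has to be switched on from a somatic state.

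The data were 47 RNA sequencing libraries in 12 groups of 4, except scNT morulae with 3 (numbered 2, 3 and 4). Fibroblasts were primary cultures from an ear biopsy of a Brahma Spanish bull cross, the cell type used as nuclear donors, and MII oocytes were matured in culture. IVF embryos came from matured oocytes and frozen semen of a Holstein bull and grew on a layer of cumulus cells. The scNT embryos came from matured oocytes without their metaphase plate, each fused with 1 fibroblast. The labels name no genetic change in any group, and donor fibroblasts were serum-starved before transfer. Embryos of both methods were pools of 20, taken at the 2-cell stage on day 2, the 8-cell stage on day 3, the morula on day 6 and the blastocyst on day 8 after fertilization or transfer, and cells derived from blastocysts were sequenced as a further group. Nothing in the labels ties a library to a separate animal. A p-value here therefore weighs a difference between groups against the variation among their pools or cultures, which can be technical variation. In pools, fewer cells of a type and less RNA per cell cannot be told apart.

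The files give genes as Ensembl identifiers and do not pair them with gene names, and 0 of the 20526 identifiers matched the reference table. The functions of the genes are therefore not given, and the labelled cell types could not be set against their defining markers. Levels are the authors' normalized reads, which are not corrected for gene length, so differences are taken for 1 gene between groups. Rankings of genes by level and correlations of levels across genes are descriptions that gene length can affect. Where a mean over genes is given, it is the mean of log2(value + 1).

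Several libraries stood apart for these genes, and some of them for other genes too. The mean log2 value of the 76 genes was 4.94 in IVF 2-cell library 3, against 0.928, 1.476 and 1.495 in the other IVF 2-cell libraries. In that library 48 of the genes were above 20 and 21 reached 60, while in each of the others at most 2 were above 20 and 0 reached 60. This was not particular to the 76 genes. Another 122 genes met the conditions in oocytes, 2-cell and 8-cell embryos but stayed above the limit in IVF blastocysts. Their mean was 4.928 in library 3, against 2.125, 2.741 and 3.31 in the others. Over all genes tested the mean was 6.274 there, against 5.824, 5.937 and 6.047. Library 3 was the highest IVF 2-cell library for 68 of the 76 genes, a share not computed over all genes. The median level of the 76 genes there was 15.1% of their IVF 8-cell median. Across the 76 genes its values correlated with the medians of IVF 8-cell embryos at r = 0.63, of IVF morulae at 0.38 and of fibroblasts at -0.07, as a description over genes that share a library. Without it the rule took 94 genes, 75 of them among the 76, and no test below uses it. Without IVF 2-cell library 4 the rule took 93 genes, with 75 again among the 76.

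Library 4 was low at the 8-cell stage in both methods. The 76 genes had means of 7.32, 8.62, 8.33 and 6.48 in IVF 8-cell libraries 1 to 4 and 4.83, 6.35, 4.99 and 3.46 in scNT 8-cell libraries 1 to 4. The order of the libraries was the same in both methods, with library 2 highest and library 4 lowest. IVF library 4 was the lowest of its group for 52 of the 76 genes and scNT library 4 for 55, while over all 16518 genes tested they were lowest for 26.5% and 31.4%. IVF morula library 4 was also low, with a mean of 3.47 against 5.62, 5.58 and 6.11. It was the lowest of its group for 52 of the genes and for 23.1% of all genes tested. For the 122 other genes IVF 8-cell library 4 was low too, with a mean of 4.901 against 6.556, 8.081 and 7.174. For them scNT 8-cell library 4 and IVF morula library 4 lay within the range of the other libraries of their groups. Percentages that use these libraries are given below without them too, with the genes and classes kept, as descriptions added after the values had been seen.

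At the edges of the rule the genes just inside and just outside differed little. The highest oocyte medians inside the limit of 20 were 19.95 and 19.8, and the next genes outside had 20.15 and 20.6. In IVF 2-cell embryos the values were 19.55 and 18.8 inside and 21.65 and 23.85 outside. In IVF 8-cell embryos they were 62.65 and 63.25 inside and 59.35 and 57.75 outside. The IVF blastocyst medians nearest to the limit were 21.9% and 21.4% of the 8-cell median inside and 25.2% and 29.4% outside.

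In IVF embryos the median over the 76 gene medians was 0.28 normalized reads in oocytes, 1.62 at the 2-cell stage, 174 at the 8-cell stage, 40.0 in morulae and 5.90 in blastocysts. The 8-cell medians ran from 62.7 to 7690. The morula, which the rule did not use, lay between them: the typical gene had 20.0% of its 8-cell median there, with a range from 1.56% to 194%. This percentage was 14.0% without IVF 8-cell library 4 and 23.8% without IVF morula library 4. For 73 genes the 8-cell median was the highest of the IVF embryo stages, and for 3 the morula median was higher. Over all 12 groups, 66 genes were highest in IVF 8-cell embryos, 4 in fibroblasts, 3 in scNT morulae, 2 in IVF morulae and 1 in blastocyst-derived cells from scNT embryos.

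The genes were described in 3 classes, set after the values had been seen and not tested against each other. The fibroblast-expressed class held 13 genes with a fibroblast median of at least 20. Of the other genes, 38 had an IVF morula median at least 4-fold below the 8-cell median and are called quick-fading, and 25 are called slow-fading. Quick-fading genes had a median of 9.77% of their 8-cell level in IVF morulae and 0.62% in IVF blastocysts. Slow-fading genes had 47.3% and 5.46%, and fibroblast-expressed genes had 22.6% and 6.01%. In IVF morulae the percentages became 8.72%, 32.7% and 18.7% without IVF 8-cell library 4, and 13.1%, 53.5% and 32.0% without IVF morula library 4, for the quick-fading, slow-fading and fibroblast-expressed genes in that order. The first 2 classes differ in the IVF morula because that ratio set them apart, and in fibroblasts the third differs from both for the same reason.

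**Figure D1:**
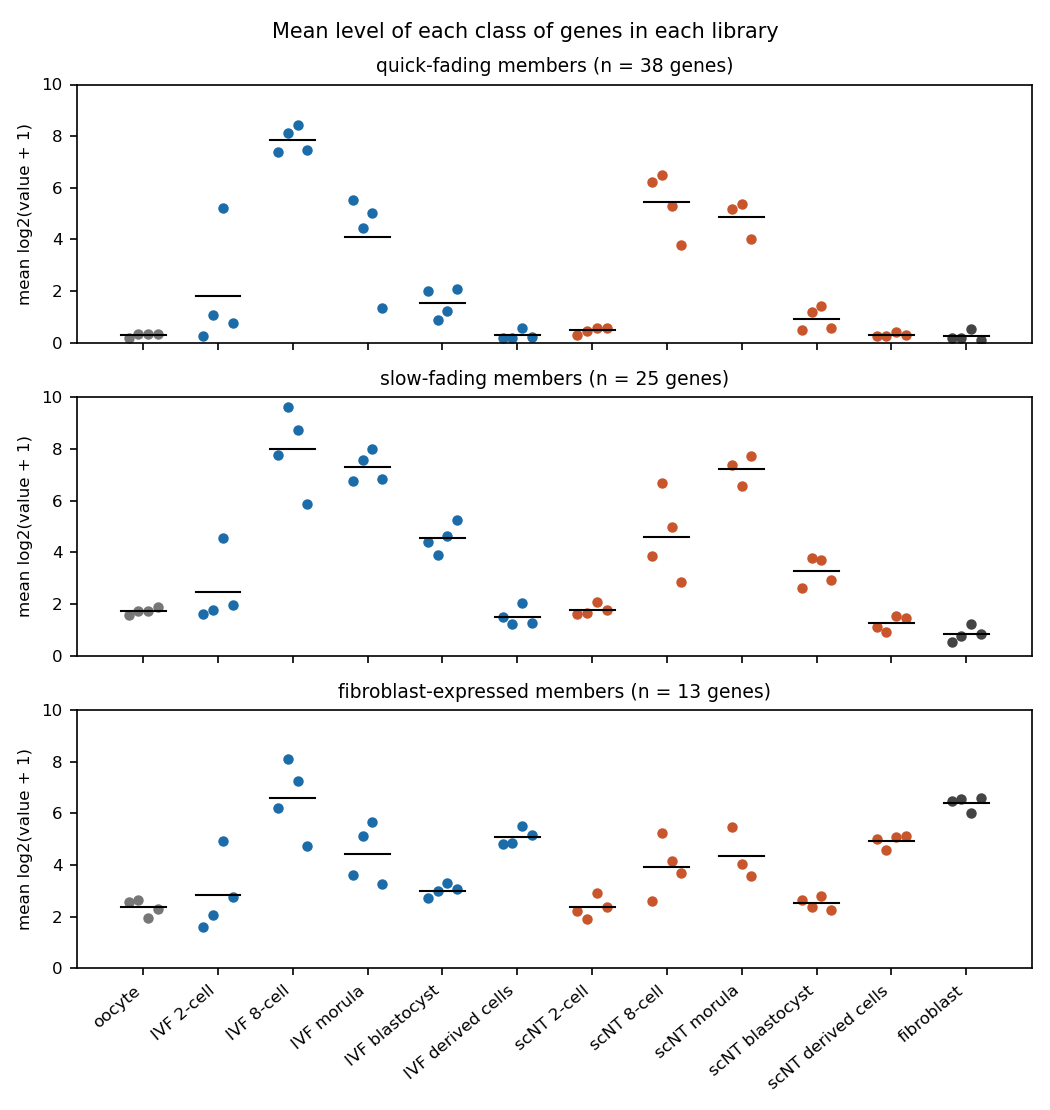
Mean log2(value + 1) of the genes of each class in every library, by group; each point is 1 library and each bar the mean of its group. Quick-fading and slow-fading genes are near the floor in oocytes and fibroblasts and high at the 8-cell stage, and IVF 2-cell library 3 lies above the other IVF 2-cell libraries in all 3 classes.

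In IVF embryos the 2 low libraries differed in the quick-fading and slow-fading classes, and both were the lowest of their group for the fibroblast-expressed genes. In IVF 8-cell library 4 the slow-fading genes had a mean of 5.87, against 7.76, 9.63 and 8.75 in libraries 1 to 3, and the fibroblast-expressed genes had 4.74 against 6.22, 8.12 and 7.26. The quick-fading genes had 7.47 there, within the range of 7.402 to 8.425 of the other libraries. In IVF morula library 4 the quick-fading genes had 1.33 against 5.54, 4.43 and 5.01. The fibroblast-expressed genes had 3.254 there, against 3.603, 5.125 and 5.662. The slow-fading genes had 6.82, within the range of 6.78 to 8.00 of the others. In scNT 8-cell library 4 the quick-fading genes were lowest, with 3.77 against 6.23, 6.50 and 5.30. The slow-fading genes were lowest there too, with 2.86 against 3.85, 6.67 and 4.97. The fibroblast-expressed genes had 3.68, within the range of the others. With IVF morula library 4 left out, 35 genes were quick-fading, and with IVF 8-cell library 4 left out 43 were.

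The highest IVF 8-cell medians belonged to 2 slow-fading genes. ENSBTAG00000038680 had 4407.1, 17645.7, 10972.2 and 812.3 normalized reads in the IVF 8-cell libraries 1 to 4, 2957.4, 3786.9, 7076.0 and 3547.8 in the morulae, and 282.7, 244.9, 463.3 and 857.7 in the blastocysts. The oocyte libraries had at most 2.5 and the fibroblast libraries at most 0.8. ENSBTAG00000020849 followed the same course, with 2090.7, 12459.2, 6366.9 and 604.1 at the 8-cell stage, 1897.5, 2260.5, 3209.2 and 1462.7 in morulae, 167.4, 114.3, 142.2 and 429.8 in blastocysts, and 0 in every oocyte library. For both genes 8-cell library 4 was the lowest of the group and library 2 the highest, the 8-cell and morula libraries overlapped, and the blastocyst libraries lay below all the morula libraries. These 2 genes also had the highest morula medians of the set.

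Many of the genes rose between the 2-cell and the 8-cell stage in scNT embryos too. Of the 76 genes, 41 were called higher in scNT 8-cell than in scNT 2-cell embryos and 0 lower, and the difference was positive for all 76 (limma on log2(value + 1), Benjamini-Hochberg adjusted p under 0.05, n = 4 and 4). Over all genes tested, 0.957% were called higher in this comparison and 3.33% lower. The 41 genes were 53.9% of the set and 26.1% of the 157 genes called higher. The median difference over the 76 genes was 3.88, or 3.67 with the 13 genes that had no read in any scNT 2-cell library set to the bound that 3 reads per library allow; over all genes tested it was 0.10. The count was 38 to 48 when a single library was left out. It was 26 of the 41 genes left when each gene had to reach a value of 10 in 4 of the 8 libraries compared, a filter that other members did not pass.

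The quick-fading genes made up most of this rise. Of the 38 quick-fading genes 35 were called higher, with a median difference of 4.98 over the class. Of the 25 slow-fading genes 5 were called, with a median of 2.86, and of the 13 fibroblast-expressed genes 1, with a median of 1.21. The count of slow-fading genes was 10 without scNT 8-cell library 4 and 8 without library 1, that of quick-fading genes lay between 34 and 36 whichever library was left out, and that of fibroblast-expressed genes between 0 and 4, with 4 without scNT 2-cell library 3 or scNT 8-cell library 1. DESeq2 on recovered reads called 36 quick-fading, 15 slow-fading and 3 fibroblast-expressed genes higher.

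ENSBTAG00000009197, a quick-fading gene, had 314.5, 439.3, 142.1 and 27.9 normalized reads in the scNT 8-cell libraries and 0, 0, 0 and 0.7 in the scNT 2-cell libraries. Every 8-cell library was above every 2-cell library, and library 4 was the lowest. The difference was 7.08 ± 0.74 (SE; limma adjusted p = 0.000832, range over 16 alternatives 1.28e-09 to 0.0109). In the IVF 8-cell libraries the gene had 757.0, 1444.3, 1947.7 and 1035.4. ENSBTAG00000038169, also quick-fading, had 177.9, 277.9, 281.3 and 14.3 in scNT 8-cell embryos and 0 in all the scNT 2-cell libraries, which makes it at least 70.0-fold higher when 3 reads are taken as the floor of each library. Its limma adjusted p was 0.00197, with a range over 16 alternatives of 6.01e-09 to 0.0877, the last from edgeR on recovered reads.

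**Figure D2:**
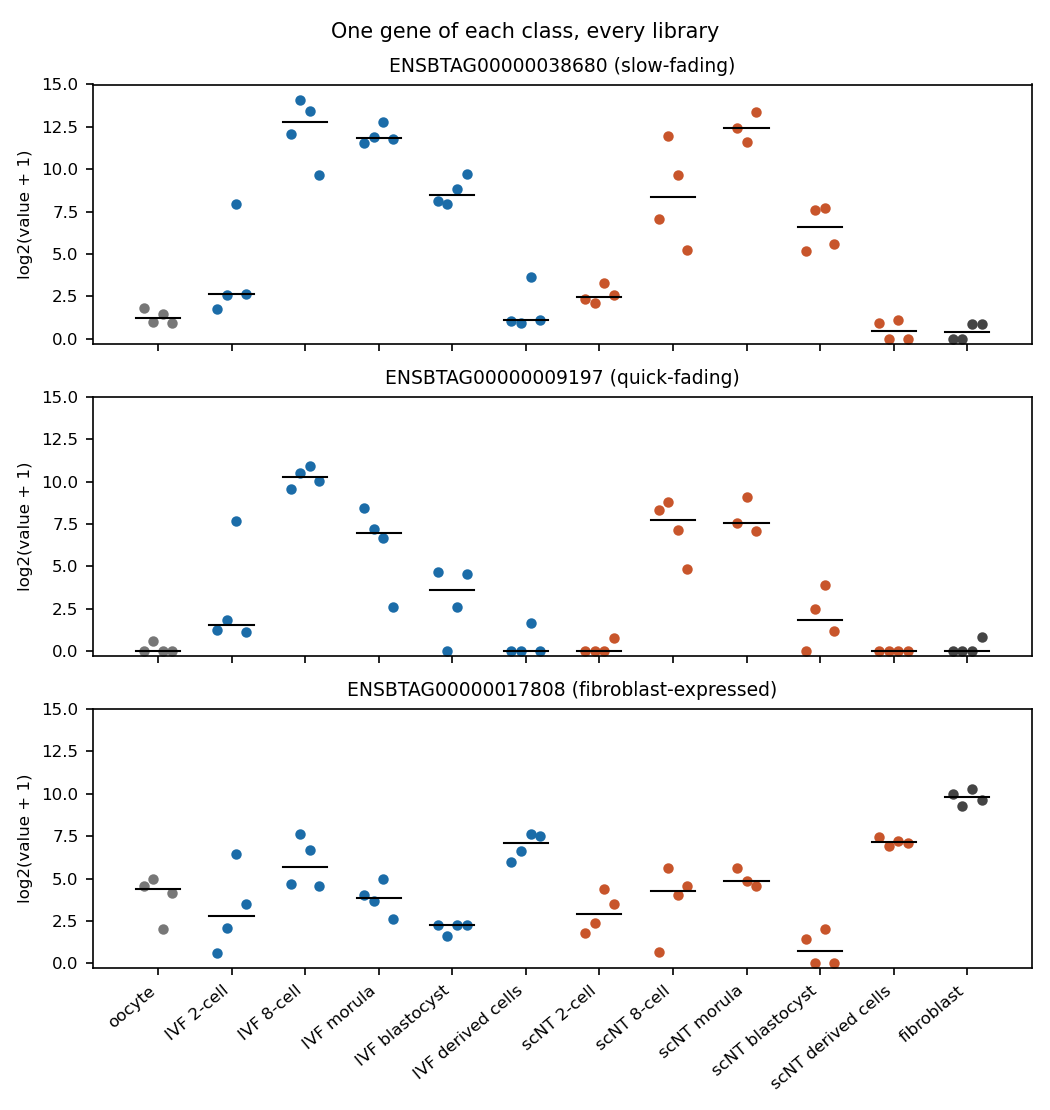
log2(value + 1) of 1 gene of each class in every library, by group; points are libraries and bars are group medians. The scNT morulae lie within the range of the IVF 8-cell libraries for ENSBTAG00000038680, ENSBTAG00000009197 rises at the 8-cell stage in both methods, and ENSBTAG00000017808 is highest in fibroblasts.

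The levels that the genes reached in scNT 8-cell embryos were below those in IVF 8-cell embryos. All 76 had a lower median in scNT, as a description, since the rule required a high IVF 8-cell median. The scNT 8-cell median was 18.9% of the IVF 8-cell median for the typical gene, and the range was 0.77% to 56.6%. For 37 genes every scNT library was below every IVF library, which held for 1.77% of all genes tested; nothing is read from this share because the rule used one side of it. The typical percentage was 25.7% in quick-fading, 20.3% in fibroblast-expressed and 7.88% in slow-fading genes. Without IVF 8-cell library 4 these were 21.5%, 16.8% and 6.14%, and 14.0% over all 76 genes. Without scNT 8-cell library 4 they were 31.7%, 19.5% and 11.0%, and 23.8% over all 76 genes. For comparison, the 122 genes that met the same conditions in oocytes, 2-cell and 8-cell embryos but stayed above the limit in IVF blastocysts had a typical percentage of 22.5%.

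The 8-cell libraries of the 2 methods could be compared number by number, because same-numbered libraries deviated together. In scNT, 73, 70, 76 and 72 of the 76 genes were lower than in the IVF library of the same number, for numbers 1 to 4. The median log2 differences were -1.75, -2.43, -3.20 and -3.19. Over all genes tested, 45.0%, 44.1%, 42.7% and 49.4% were lower in scNT. The members' counts are a description, since the rule chose genes that were high in IVF 8-cell embryos.

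When the rule was applied with scNT groups in place of the IVF groups, 33 genes met it. Of these, 21 were among the 76, 17 of them quick-fading and 4 slow-fading, and 12 were other genes. The usual reason for a member to miss it was the 8-cell level, since 53 had an scNT 8-cell median under 60. In 24 the blastocyst median was not 4-fold below the 8-cell median, and in 1 the scNT 2-cell median was above 20. Of the 33 genes, which were chosen here for a high scNT 8-cell level, 27 had a higher IVF 8-cell median, and the typical scNT level was 40.8% of the IVF level. Among the 12 other genes 6 were higher in IVF, with a typical percentage of 94.6%, and 11 of the 12 had an IVF 2-cell median above 20.

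Between the 8-cell stage and the morula the median differences of the quick-fading and slow-fading classes had opposite signs in scNT embryos. Of the 76 genes, 14 were called higher in scNT morulae than in scNT 8-cell embryos and 5 lower, against 28.7% of all genes tested called higher and 32.6% called lower (limma, n = 3 and 4). All 14 higher genes were slow-fading. Slow-fading genes had a median difference of 2.39, and 23 of the 25 differences were positive. Quick-fading genes had a median difference of -0.82, with 23 of 38 negative, 0 called higher and 4 called lower. These 4 were a smaller share than the 32.6% over all genes, so no fall of the class is read from them. Of the fibroblast-expressed genes 1 was called lower, and their median was 0.57. Of the 122 genes kept in IVF blastocysts, 111 were called higher in this step and 1 lower, with a median of 3.52.

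These counts moved with single libraries. Without scNT 8-cell library 4 they became 9 higher and 14 lower, and the median over the 76 genes went from 0.56 to -0.09. Without scNT 8-cell library 2 they became 21 higher and 0 lower, without library 1 11 and 0, without scNT morula library 2 8 and 4, without scNT morula library 3 15 and 0, and without scNT morula library 4 8 and 2. With edgeR on recovered reads 8 were higher and 7 lower. By class, slow-fading genes called higher ranged from 6 without scNT morula library 4 to 19 without scNT 8-cell library 2. Quick-fading genes called lower ranged from 0 without scNT 8-cell library 1 to 13 without scNT 8-cell library 4. The median of the slow-fading class lay between 1.96 and 3.04 whichever library was left out and that of the quick-fading class between -1.30 and -0.26, so both kept their sign. The median of the fibroblast-expressed class was -0.41 without scNT morula library 2 and 0.13 without scNT 8-cell library 1.

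ENSBTAG00000002273, a slow-fading gene, had 755.4, 467.1 and 1411.3 normalized reads in the scNT morulae and 0.6, 320.5, 16.0 and 1.5 in the scNT 8-cell libraries. The groups did not overlap, and 8-cell library 2 was high above the other libraries of its group. The difference was 6.03 ± 1.75 (SE; limma adjusted p = 0.0189, range over 15 alternatives 0.000402 to 0.104). The threshold was missed in 6 alternatives, among them leaving out scNT 8-cell library 4, scNT morula library 2 or scNT morula library 4. In the IVF morulae the gene had 728.2, 784.7, 972.8 and 573.6, which overlapped with the scNT morulae.

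ENSBTAG00000020849 had 4388.3, 2426.5 and 6435.6 in the scNT morulae and 40.2, 1415.5, 530.6 and 22.6 in the scNT 8-cell libraries, again without overlap. The difference was 4.64 ± 1.43 (SE; limma adjusted p = 0.0244, range over 15 alternatives 0.00766 to 0.123), and it missed the threshold in 6 alternatives, including those without scNT 8-cell library 4, scNT morula library 2 or scNT morula library 4. No gene called lower met the conditions for being named, which asked for groups without overlap and a mean of at least 50.

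The stage of the highest level in scNT embryos followed the class. Of the 38 quick-fading genes, 30 had their highest scNT embryo median at the 8-cell stage and 8 in the morula. Of the 25 slow-fading genes, 22 had it in the morula, 2 at the 8-cell stage and 1 in the blastocyst. The fibroblast-expressed genes were divided, with 6 in each of the 8-cell stage and the morula and 1 in the blastocyst. Across the 76 genes the step from the 8-cell stage to the morula correlated between the methods at r = 0.76, as a description over genes that share libraries. In IVF embryos 22 of the 25 slow-fading genes were highest at the 8-cell stage. The rule asked for a high IVF 8-cell median, which favours an IVF peak at that stage and also enters the correlation. The difference in peak stage between the methods is therefore a description. In IVF 8-cell library 4 the slow-fading mean of 5.87 was below that of every IVF morula library.

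**Figure D3:**
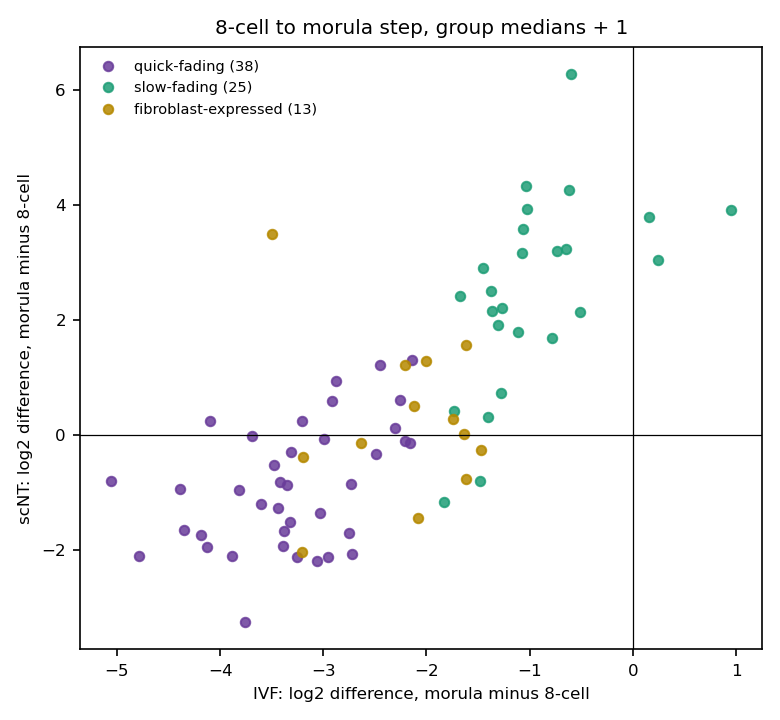
Difference between the morula and 8-cell medians, as log2(median + 1), in IVF embryos (horizontal axis) and scNT embryos (vertical axis); each point is 1 gene, coloured by class. Most slow-fading genes lie to the left of the vertical line and above the horizontal one, that is lower in the IVF morula but higher in the scNT morula than at the 8-cell stage. The rule chose genes with a high IVF 8-cell median, which favours places to the left of the vertical line.

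In morulae few of the genes were called between the methods. Of the 76 genes, 2 were called lower in scNT than in IVF morulae and 0 higher (limma, n = 3 and 4). Over all genes tested, 8.81% were called lower and 5.32% higher. Of the 122 genes kept in IVF blastocysts, 34 were called higher and 1 lower. The quick-fading mean varied among morula libraries, with an SD of 1.887 in IVF and 0.72 in scNT. With so few libraries, the few calls say little about how alike the methods are. At an unadjusted limma p under 0.05, 4 of the 76 genes were lower and 5 higher. Over all genes tested, 5293 of 16461 had such a p in either direction. With equal library totals the split over all genes moved from 875 higher and 1450 lower to 348 and 1827, and the members' counts did not change. The median over the 76 genes was 0.48, with 49 differences positive, and it was -0.06 without IVF morula library 4. The typical scNT morula level was 121% of the IVF morula level, and the range was 4.84% to 714%. It was 143% in quick-fading genes, which were chosen for low IVF morula levels, and 102% in slow-fading genes. Without IVF morula library 4 it was 101.5% over the 76 genes, 104% in quick-fading and 114% in slow-fading genes. Gene by gene, the morula medians of the 2 methods correlated at r = 0.88 across the 76 genes, as a description.

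Both genes called lower were slow-fading. ENSBTAG00000031814 had 29.2, 37.4 and 69.5 normalized reads in the scNT morulae and 103.4, 246.7, 397.7 and 87.5 in the IVF morulae. ENSBTAG00000047411 had 80.0, 67.3 and 111.8 in the scNT morulae and 145.0, 153.1, 263.0 and 195.5 in the IVF morulae. In neither gene did the groups overlap. The differences were -2.002 ± 0.547 (SE; limma adjusted p = 0.0454, range over 15 alternatives 0.000389 to 0.116) and -1.113 ± 0.266 (SE; limma adjusted p = 0.027, range 0.00176 to 0.0797). The first missed the threshold in 10 of the alternatives, which included leaving out any of the 7 libraries. The second missed it in 6, which included leaving out IVF morula library 2, 3 or 4 or scNT morula library 2 or 3.

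Most of the genes fell between the morula and the blastocyst in scNT embryos. Of the 76 genes, 64 were called lower in scNT blastocysts than in scNT morulae and 0 higher (limma, n = 4 and 3), against 22.9% of all genes tested called lower and 17.4% called higher. The difference was negative for 74 genes, with a median of -3.65, or -3.50 with the 5 genes that had no read in any scNT blastocyst library set to their bound. The groups did not overlap for 62 genes, but the share over all genes tested was not computed, so nothing is read from this count. The count was 57 to 66 when a single library was left out. With equal library totals the split over all genes moved from 2861 higher and 3775 lower to 1568 and 6265, with edgeR on recovered reads it was 3445 and 2958, and the members called lower were 67 and 66. Of the 122 genes that were kept in IVF blastocysts, 45 were called lower in this step and 18 higher.

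The fall reached 34 of the 38 quick-fading genes, 23 of the 25 slow-fading genes and 7 of the 13 fibroblast-expressed genes. The medians were -3.86, -3.95 and -1.51. ENSBTAG00000007477, a slow-fading gene, had 690.5, 495.8 and 859.8 normalized reads in the scNT morulae and 0, 15.5, 13.8 and 5.1 in the scNT blastocysts. The difference was -6.75 ± 0.95 (SE; limma adjusted p = 0.00159, range over 15 alternatives 5.27e-41 to 0.00931). ENSBTAG00000046740, also slow-fading, had 369.7, 152.0 and 701.1 in the morulae and 0, 4.6, 3.1 and 5.1 in the blastocysts, a difference of -6.63 ± 0.72 (SE; limma adjusted p = 0.000206, range 2.93e-21 to 0.00352). In both genes every blastocyst library was far below every morula library.

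Measured from the 8-cell stage, 48 of the 76 genes were called lower in scNT blastocysts and 1 higher (limma, n = 4 and 4), against 38.5% of all genes tested called lower and 35.3% called higher. The median difference was -3.47, or -3.37 with genes at 0 set to their bound. The classes contributed 35 quick-fading, 6 slow-fading and 7 fibroblast-expressed genes to the 48. Quick-fading genes had a median of -4.74 and slow-fading genes, which were still low in scNT 8-cell embryos, a median of -1.26. Of the 122 genes kept in IVF blastocysts, 1 was called lower and 104 higher.

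ENSBTAG00000040450, a quick-fading gene, had 465.8, 193.4, 83.7 and 24.9 normalized reads in the scNT 8-cell libraries, 43.3, 92.2 and 9.1 in the morulae, and 0, 0, 3.1 and 0 in the blastocysts. Its morula libraries overlapped with the 8-cell libraries, and its blastocyst libraries lay below both. The difference between blastocysts and 8-cell embryos was -6.38 ± 0.85 (SE; limma adjusted p = 6.21e-05, range over 16 alternatives 4.21e-07 to 0.00073). ENSBTAG00000031507, also quick-fading, had 203.4, 187.7, 43.3 and 40.8 at the 8-cell stage and 0, 0, 1.5 and 0 in the blastocysts, a difference of -6.19 ± 0.63 (SE; limma adjusted p = 4.98e-06, range 7.57e-11 to 7.11e-05). Its IVF 8-cell libraries were close together, at 269.7, 298.4, 292.9 and 232.2.

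As a description, 69 genes had an scNT blastocyst median at least 4-fold below the higher of the scNT 8-cell and morula medians, and 39 had a median of at least 60 at one of those stages. The blastocyst medians were lower in scNT than in IVF for 59 genes, higher for 9 and equal for 8. Many were near the floor, with medians of at most 1 in 30 genes in scNT and 16 in IVF blastocysts. The rule used the IVF blastocyst values and the share over all genes was not computed, so nothing is read from these counts.

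The 1 gene called higher in scNT blastocysts than in scNT 8-cell embryos was ENSBTAG00000005343, in the slow-fading class. It had 134.2, 23.2, 70.5 and 114.4 normalized reads in the scNT blastocysts, 7.4, 27.9, 4.7 and 0.8 in the scNT 8-cell embryos, and 67.7, 8.7 and 39.3 in the scNT morulae. In IVF embryos it had 71.5, 351.0, 141.4 and 4.5 at the 8-cell stage, 20.1, 60.9, 77.0 and 14.6 in morulae and 7.4, 4.1, 7.6 and 11.3 in blastocysts. The scNT blastocyst libraries were thus all above the IVF blastocyst libraries, a difference that is not tested because the rule chose genes that were low in the latter. The difference between scNT blastocysts and scNT 8-cell embryos was 3.35 ± 0.84 (SE; limma adjusted p = 0.00463), although 8-cell library 2 overlapped with blastocyst library 2.

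**Figure D4:**
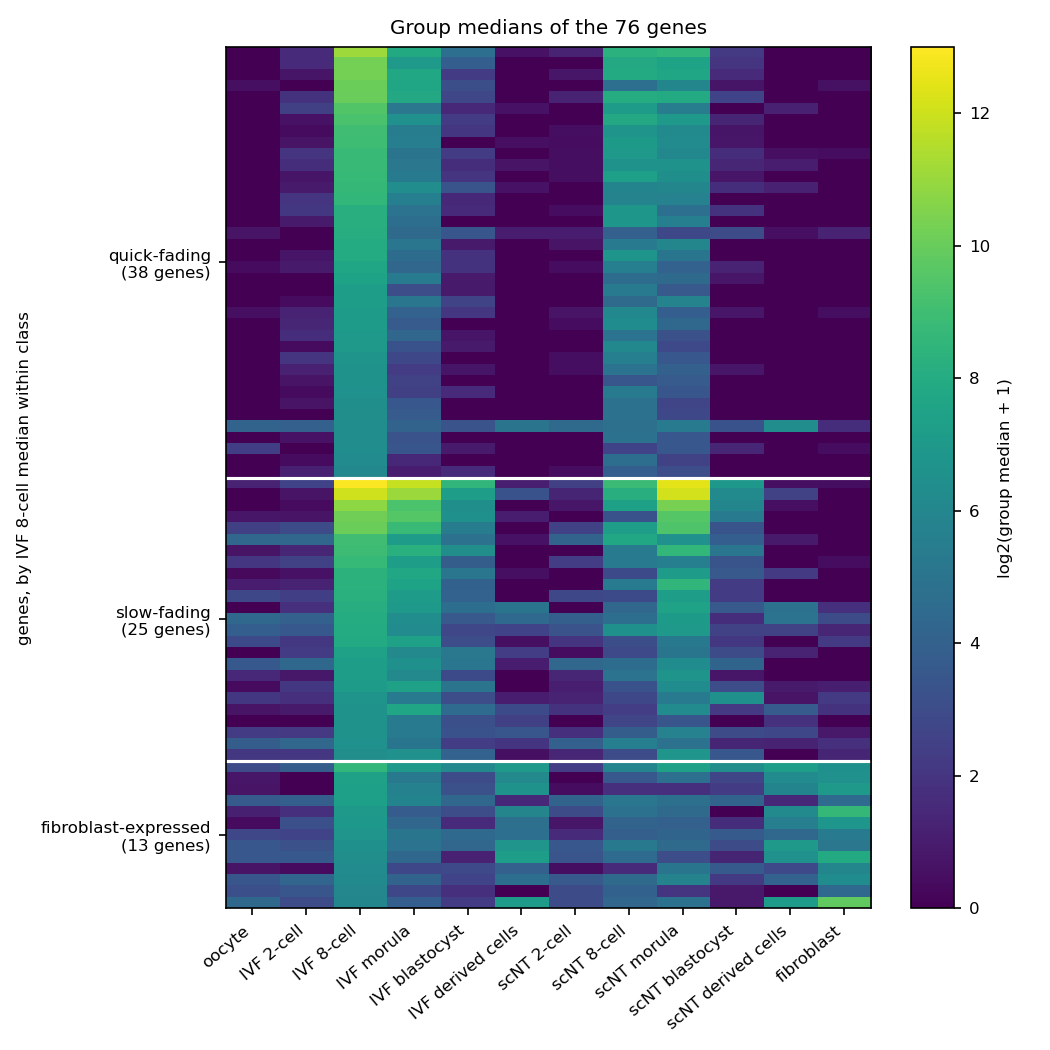
Group medians of the 76 genes as log2(median + 1), with genes in rows ordered by their IVF 8-cell median within each class and groups in columns. The bright IVF 8-cell column is what the rule chose; in the scNT columns quick-fading genes are brightest at the 8-cell stage and slow-fading genes in the morula.

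Most of the genes were at or near 0 in all the cultured cells. In 42 of the 76 genes the medians were at most 1 normalized read in fibroblasts and in blastocyst-derived cells of both methods, while 7.21% of all genes tested and 6 of the 122 genes kept in IVF blastocysts were that low. In these files 1 read was worth between 0.477 and 2.04 normalized reads, depending on the library. A fibroblast median of at least 20 was found in 13 of the 76 genes and in 83 of the 122. In 8 genes the median was at least 20 in fibroblasts and in both kinds of blastocyst-derived cells.

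Against fibroblasts, scNT 8-cell embryos had 54 of the 76 genes called higher and 9 lower (limma, n = 4 and 4), while 35.2% of all genes tested were called higher and 31.4% lower. The median difference was 4.38, or 3.57 with the 27 genes that had no read in any fibroblast library set to their bound. All 9 lower genes were in the fibroblast-expressed class, and the 54 were 36 quick-fading and 18 slow-fading genes. The fibroblast level set that class apart from the others, so nothing is read from this split. The count was 32 of 45 when each gene had to reach a value of 10 in 4 of the 8 libraries compared, and 51 to 59 when a single library was left out. The 9 lower became 5 without fibroblast library 1 or without scNT 8-cell library 1. ENSBTAG00000017993, a slow-fading gene, had 477.1, 283.6, 138.3 and 104.1 in the scNT 8-cell libraries and 0 in every fibroblast library, at least 102-fold higher with 3 reads per library as the floor. Its limma adjusted p was 2.71e-06, with a range over 16 alternatives of 2.52e-18 to 0.000337. ENSBTAG00000038680 had 133.2, 4054.7, 794.0 and 36.2 in scNT 8-cell embryos and at most 0.8 in fibroblasts, a difference of 8.05 ± 1.27 (SE; limma adjusted p = 0.000508, range 2.98e-13 to 0.0023).

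Of the 13 fibroblast-expressed genes, 4 had their highest group median in fibroblasts, 8 in IVF 8-cell embryos and 1 in scNT blastocyst-derived cells. ENSBTAG00000017808 had 1016.8, 627.3, 1252.8 and 802.4 normalized reads in fibroblasts and 0.6, 47.5, 15.1 and 22.6 in scNT 8-cell embryos. Its IVF 8-cell libraries, at 24.6, 194.4, 100.7 and 22.6, overlapped with its oocyte libraries, at 22.8, 30.4, 3.1 and 16.8. The gene was thus among those nearest to the limits of the rule, with medians of 19.8 in oocytes and 62.65 in IVF 8-cell embryos. The difference between scNT 8-cell embryos and fibroblasts was -6.10 ± 0.92 (SE; limma adjusted p = 0.000393, range over 16 alternatives 1.4e-10 to 0.00181). ENSBTAG00000037558 had 160.1, 100.8, 75 and 154.9 in fibroblasts and 0, 8.2, 1.9 and 3.0 in scNT 8-cell embryos, a difference of -5.20 ± 0.65 (SE; limma adjusted p = 0.000125, range 2.52e-12 to 0.00111). Its IVF 8-cell libraries, at 86.4, 335.1, 239.0 and 37.5, overlapped with its fibroblast libraries and had the higher median, 162.7 against 127.85. ENSBTAG00000014972 had 350.3, 456.2, 49.7 and 452.0 in fibroblasts, the second highest median there, with library 3 low. Fibroblast library 3 was the lowest of its group for 7 of the 13 fibroblast-expressed genes and the highest for 4. It had 22.0 against 280.9, 301.8 and 205.3 in ENSBTAG00000008113, and 183.4 against 29.2, 38.2 and 31.6 in ENSBTAG00000000436, a gene singled out after its values were seen.

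From scNT blastocysts to the cells derived from them, 13 of the 76 genes were called higher and 21 lower (limma, n = 4 and 4), with 4 genes at 0 in all 8 libraries. Over all genes tested, 27.9% were called higher and 32.1% lower, and with equal library totals the split moved from 4595 higher and 5273 lower to 5768 and 4005, which gave 14 and 21 members. With a value of 10 required in 4 of the 8 libraries compared, 20 members were tested and the 21 lower became 7. The median difference was -0.64, and 0 with the genes at 0 in one group set to their bound. Of the 13 genes called higher 9 were fibroblast-expressed, 3 slow-fading and 1 quick-fading. Of the 21 called lower 15 were slow-fading, 5 quick-fading and 1 fibroblast-expressed. The fibroblast-expressed class had a median difference of 3.44.

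ENSBTAG00000017808 had 172.7, 120.4, 148.0 and 135.4 normalized reads in the scNT blastocyst-derived cells and 1.7, 0, 3.1 and 0 in scNT blastocysts. ENSBTAG00000008113, also fibroblast-expressed, had 72.2, 73.5, 116.3 and 227.0 in the derived cells and 1.7, 0, 3.1 and 1.3 in blastocysts. Both were low in every blastocyst library and high in every derived cell library. The differences were 6.30 ± 0.48 (SE; limma adjusted p = 3.71e-07, range over 16 alternatives 4.12e-15 to 7.32e-06) and 5.61 ± 0.51 (SE; limma adjusted p = 1.6e-06, range 3.05e-13 to 1.65e-05). In derived cells from IVF embryos they had 61.9, 99.3, 197.7 and 181.8, and 79.9, 61.3, 247.4 and 223.4.

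In the other direction, ENSBTAG00000038680 had 34.8, 193.6, 210.0 and 47.0 in scNT blastocysts and 0.9, 0, 1.2 and 0 in the derived cells, a difference of -6.00 ± 0.61 (SE; limma adjusted p = 4.4e-06, range over 16 alternatives 4.69e-11 to 8.81e-05). ENSBTAG00000005343, the gene that was high in scNT blastocysts, had 1.7, 0, 1.2 and 0 in the derived cells, a difference of -5.53 ± 0.58 (SE; limma adjusted p = 5.7e-06, range 2.98e-11 to 4.69e-05). In neither gene did the groups overlap.

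No member was called between blastocyst-derived cells of the 2 methods. Of the 76 genes, 20 were at 0 in all 8 libraries and 56 could be tested, with 0 called in either direction by limma, edgeR or DESeq2, and 2 higher and 2 lower at an unadjusted p under 0.05. Over all genes tested, 0.571% were called higher in derived cells from scNT embryos and 0.726% lower. An unadjusted limma p under 0.05 was found in 1997 of these 16125 genes, in either direction. The medians of the 2 groups correlated at r = 0.98 across the 76 genes, and those of IVF blastocyst-derived cells and fibroblasts at 0.86, as descriptions. Medians were at most 1 in 52 of the 76 genes in IVF derived cells and in 50 in scNT derived cells. With so many genes near the floor, the correlations and the 0 calls say little about how alike the methods are. The 2 genes with the highest medians in IVF blastocyst-derived cells were ENSBTAG00000008113 and ENSBTAG00000017808, and 11 genes had a median of at least 20 in both kinds.

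**Figure D5:**
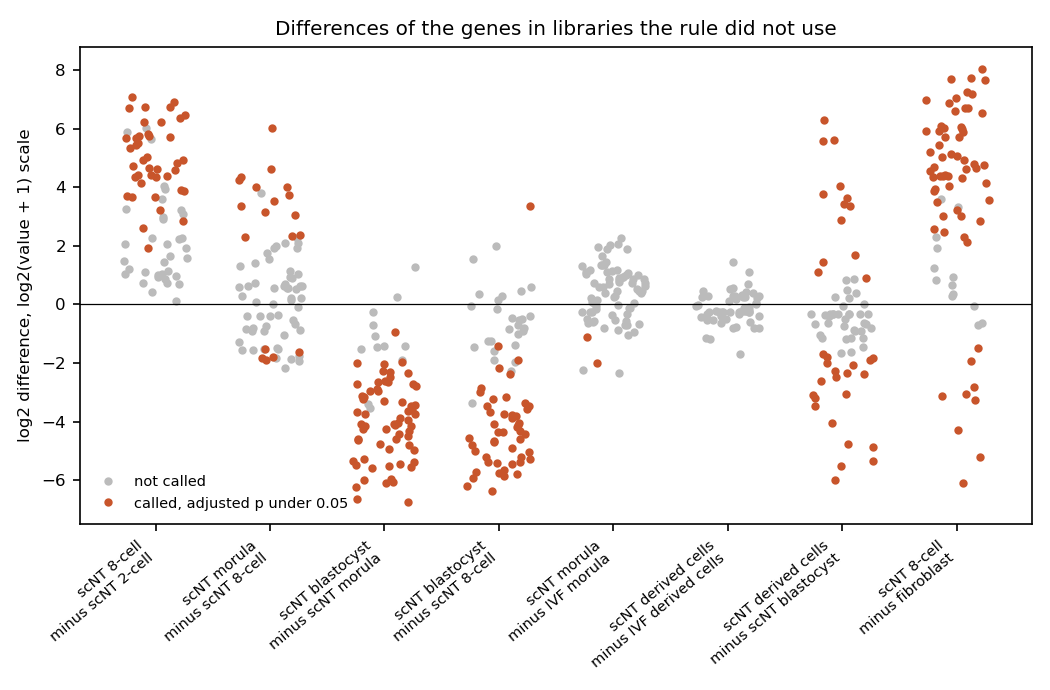
Log2 differences of the genes in each tested comparison, on the log2(value + 1) scale; each point is 1 gene, coloured where the adjusted p was under 0.05. All points are above 0 for scNT 8-cell against 2-cell embryos, nearly all are below 0 for scNT blastocysts against morulae, and the points lie on both sides of 0 for morulae and derived cells of the 2 methods.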

How the data were processed

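The submitters' processing notes name FastQC, MultiQC, STAR and DESeq2 and genome build UMD3.1. Versions, annotation and counting tool were not given in the sources used here. Per the labels' protocols, libraries were made from RNA above 200 nt with a low-input kit and repeated PCR, so reads are not independent molecules and floors cover counting error only. The deposited signal is 1 normalized read value per gene and library. Values were whole multiples of a step specific to the library, and 99.8% to 100% were whole within 0.05, against at most 21.0% by chance. This gave 4608099 to 16642362 recovered reads per library. All 69 pairs of replicate libraries differed by more than sampling noise, with a lowest chi-square per degree of freedom of 7.32.

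A gene was tested if 2 or more of the 47 libraries reached a value of 10, which held for 16518 genes and, by the way they were chosen, for all 76 members. Tests used limma 3.58.1 (trend, robust; R 4.3.3) on log2(value + 1), for the 2 groups compared, without a block, two-sided, with Benjamini-Hochberg adjustment over all genes tested. Changes of low genes come out smaller on this scale. The script was tested on simulated data. Alternatives were a pseudocount of 5, other filters, equal library totals, median-of-ratios scaling, edgeR 4.0.16 and DESeq2 1.42.0 on recovered reads, a replicate block, and leaving out each library. Same-numbered IVF and scNT 8-cell libraries deviated together (correlations of 0.23 to 0.44), and in the tested comparisons the numbers did not pair the libraries.

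The members, classes and lists were chosen with earlier results of these data known. Named genes were the 2 highest in IVF 8-cell embryos, IVF morulae, fibroblasts and IVF blastocyst-derived cells, and for each comparison the 2 largest differences in each direction among called genes without overlap whose higher mean was at least 50. Genes at the edges of the rule are given by value. The scNT blastocyst values of ENSBTAG00000005343 were singled out after they were seen. With 0 of 20526 identifiers matched, the lists of cell type markers and pathway genes were not used, and no sequence is printed.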

Additional observations from a re-analysis of the deposited data

Results flagged for a closer look

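The mean log2(value + 1) of the 76 genes and of each class was compared within every group of 4 libraries. In 8 of 44 such comparisons the highest or lowest library lay further from the nearest of the others than Dixon's criterion allows. Chance gives about 1 in 20 for a single comparison. The 44 are not independent, because the 76 genes and their classes share genes and libraries, and a library can be flagged more than once. IVF 2-cell library 3 was high for all 76 genes (4.94), for quick-fading genes (5.206) and for slow-fading genes (4.547). IVF blastocyst-derived library 3 was high for all 76 genes (1.906) and for quick-fading genes (0.58). For quick-fading genes scNT blastocyst-derived library 3 (0.429) and fibroblast library 3 (0.52) were also high, and oocyte library 1 (0.188) was low. Except in IVF 2-cell library 3, all the flagged means of quick-fading genes were under 1, a level that corresponds to less than 1 normalized read on this scale.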

How the results depend on the processing

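The counts of members called lower stayed within 1.5 times their main value under all alternatives for scNT blastocysts against scNT morulae (47 to 67, leave-one-out 57 to 66) and against 8-cell embryos (33 to 53, leave-one-out 45 to 50), and so did the count called higher for scNT derived cells against scNT blastocysts (11 to 14, leave-one-out 11 to 13). For derived cells of the 2 methods the counts in both directions were 0 under every alternative. With a value of 10 required in as many of the compared libraries as the smaller group holds, 26 members in place of 41 were called higher in scNT 8-cell than 2-cell embryos 32 in place of 54 higher than in fibroblasts, and 7 in place of 21 lower in scNT derived cells than blastocysts, where fewer members were tested. The 5 members called lower in scNT morulae than 8-cell embryos became 3 with median-of-ratios scaling and 9 with DESeq2 (leave-one-out 0 to 14). The 2 called lower in scNT than IVF morulae became 1 without a filter and 1 with edgeR (leave-one-out 0 to 3). In the other direction, the 14 called higher in scNT morulae than 8-cell embryos became 8 with edgeR and 8 to 21 with a library left out. The 0 higher in scNT than IVF morulae became 2 with DESeq2, 1 without IVF morula library 1 and 2 without scNT morula library 3. The 1 higher in scNT blastocysts than 8-cell embryos became 2 with median-of-ratios scaling and 4 without scNT 8-cell library 2. The causes of these changes in count were not tested.

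The numbers did not pair the libraries in any tested comparison. With the replicate number as a block, members called lower were 3 in scNT morulae against 8-cell embryos, 0 in scNT against IVF morulae, and 55 in scNT blastocysts against morulae. In the other comparisons the block gave 38, 50, 0, 13 and 54, all within 1.5 times. Equal library totals moved the median over all genes from -0.15 to -0.52 and from -0.04 to -0.39 for scNT blastocysts against morulae and 8-cell embryos, from 0.03 to -0.12 for morulae of the 2 methods, from -0.13 to 0.13 for scNT derived cells against blastocysts, and from 0.13 to 0.36 for 8-cell embryos against fibroblasts. Median-of-ratios scaling moved it from -0.07 to 0.11 for scNT morulae against 8-cell embryos.

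The rule took 59 to 78 genes under other thresholds, scaling and means, and 67 to 94 when a single library was left out. The number of members meeting the rule in scNT groups was 21 to 24. The class sizes and percentages without library 4 of a group were computed after seeing the data.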
